A study of Mus musculus with 6 samples.

Results

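The genes described here are 3 receptors and 6 ligands of the epidermal growth factor (EGF) receptor family, 9 of 21938 protein-coding genes, and what was measured is how open the chromatin at their loci was. The receptors were Egfr, Erbb2 and Erbb3, and the ligands Areg, Ereg, Hbegf, Btc, Tgfa and Epgn. They were chosen by name as members of the family, with earlier results of these data known. The ligands are made as membrane-anchored precursors, released by sheddase enzymes, and bind receptors that pair and phosphorylate each other, which starts the RAS to MAP kinase and the PI3 kinase cascades. Egfr binds the ligands Areg, Ereg, Hbegf, Btc, Tgfa and Epgn. Erbb2 has no known ligand of its own and acts as a partner, and Erbb3 binds neuregulins and has little kinase activity. In stratified and glandular epithelia this family is known for controlling the growth and migration of basal cells after wounding.

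The study profiled horizontal basal cells, the reserve stem cells that lie on the basement membrane of the olfactory epithelium and divide when the tissue is damaged. Single-cell ATAC-seq, in which a transposase cuts open DNA in single nuclei, was run on 3 libraries from uninjured mice and 3 from mice taken 24 h after an intraperitoneal injection of methimazole, a drug that kills most of the olfactory epithelium above the basal layer. The mice of both groups carried Krt5CreER and Rosa26 LSL-YFP/LSL-YFP, so that a Cre recombinase driven by the keratin 5 promoter marks basal cells and whatever descends from them with YFP. YFP-positive, propidium iodide-negative cells from the dorsal epithelium were sorted before nuclei were made, so descendants of basal cells and any other keratin 5 cell of the dissection could be in the sort. Mice were 8 weeks old for replicate 1, 6 weeks for replicate 2 and 6 to 7 weeks for replicate 3 of both groups. The labels call the libraries biological replicates, without giving the number of mice behind each.

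After barcodes with at least 2000 fragments were kept, the libraries held 454, 889 and 629 barcodes without injury (replicates 1 to 3) and 1338, 420 and 746 with it. They gave between 14825320 and 44875242 cut sites, a cut site being either end of a fragment. Values below are CPM, cut sites summed over barcodes and divided by the library's total of cut sites after TMM scaling, unless stated otherwise. A larger share of open nuclei and more cutting per nucleus thus cannot be told apart. Start windows of the 7 horizontal basal cell markers had a median of 27.5 CPM, against medians of 0.472 to 17.5 CPM for 9 lists of other cell types. Single genes did not all follow their list. The basal marker Trp63 had 2.11 to 4.74 CPM, and the airway marker Foxa1 had 32.6 to 52.5. The medians thus do not tell which cells were in the sort. Uninjured replicate 3 and injured replicate 3 shared 34 kept barcodes, and in the smaller copy of each such barcode 97.2% of fragments (82002 of 84376) had the same ends in both libraries. In 16 of these barcodes uninjured replicate 3 held more fragments and in 18 injured replicate 3 did. Other pairs of libraries shared 0 to 4 barcodes, with 0% to 91.7% of fragments of the smaller copies alike. Results are therefore also given without all barcodes found in more than 1 library.

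Sequences are shown for 4 tiles (500 bp stretches of a fixed grid) that were more open after injury, to show the DNA at issue and a motif that the results return to. They were picked because they hold that motif, and the named Ereg and Tgfa tiles with no match in their most cut 300 bases are not shown. The named Erbb3 tile and the named lower Egfr tile held no match anywhere in their 500 bp and are not shown either. Each is the 300-base part of its tile with the most cut sites, read from GRCm38 on the + strand, 5′ to 3′. Capitals mark TGANTCA, the core that AP-1 (FOS and JUN dimers) binds, with N any base. It was searched on both strands, on which it reads the same. The Ereg stretch (chr5:91083081-91083380) lies in an Ereg intron and belongs to the ligand tile with the smallest p. The Epgn stretch (chr5:91014501-91014800) lies upstream of Epgn in an intron of Mthfd2l. The Egfr stretch (chr11:16735201-16735500) lies between genes, upstream of Egfr. The Erbb2 stretch (chr11:98449671-98449970) lies downstream of Erbb2, in an intron of Grb7.
Ereg: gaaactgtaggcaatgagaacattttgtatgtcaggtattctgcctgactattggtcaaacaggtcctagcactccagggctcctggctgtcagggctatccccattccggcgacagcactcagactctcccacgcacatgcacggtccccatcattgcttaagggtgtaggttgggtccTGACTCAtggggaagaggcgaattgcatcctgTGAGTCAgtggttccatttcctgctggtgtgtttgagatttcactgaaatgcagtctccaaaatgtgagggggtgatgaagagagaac
Epgn: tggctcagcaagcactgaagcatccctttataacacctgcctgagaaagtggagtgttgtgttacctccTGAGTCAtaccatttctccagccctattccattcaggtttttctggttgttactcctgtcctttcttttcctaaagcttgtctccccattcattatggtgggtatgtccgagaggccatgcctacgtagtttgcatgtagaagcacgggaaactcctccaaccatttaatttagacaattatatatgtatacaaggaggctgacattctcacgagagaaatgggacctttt
Egfr: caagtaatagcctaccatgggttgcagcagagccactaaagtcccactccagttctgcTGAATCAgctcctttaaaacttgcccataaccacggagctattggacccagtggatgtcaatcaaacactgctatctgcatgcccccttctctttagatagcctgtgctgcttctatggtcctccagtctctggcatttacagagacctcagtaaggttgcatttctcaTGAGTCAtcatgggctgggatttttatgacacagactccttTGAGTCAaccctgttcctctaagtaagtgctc
Erbb2: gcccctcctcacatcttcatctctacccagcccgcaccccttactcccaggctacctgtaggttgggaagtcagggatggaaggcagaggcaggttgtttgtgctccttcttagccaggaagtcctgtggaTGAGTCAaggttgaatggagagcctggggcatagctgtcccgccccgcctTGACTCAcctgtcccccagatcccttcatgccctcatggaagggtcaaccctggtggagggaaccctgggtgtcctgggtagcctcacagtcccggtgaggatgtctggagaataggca
The Ereg and Erbb2 stretches held 2 matches each, the Egfr stretch 3 and the Epgn stretch 1.

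At gene starts the receptors did not pass the test and 1 ligand, Ereg, did. A start window covered 1 kb on each side of an annotated protein-coding start. The 9 genes had 10 such windows, since Egfr had 2, and all 10 held enough cut sites to be tested. Only the Ereg window was called higher after injury and none was called lower (edgeR quasi-likelihood test, Benjamini-Hochberg adjusted p under 0.05 over 24618 windows). Of all windows tested, 2.47% were called higher and 2.34% lower. An unadjusted p under 0.05 was found for 3 of the 10, those of Ereg, Erbb2 and Tgfa, and for 5483 of all 24618, so that count was near the background.

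Since the windows are of equal width, their levels can be ranked. In uninjured cells the Erbb3 window (31.0 to 32.8 CPM) and the Hbegf window (28.8 to 35.2) were the most open and overlapped. The windows of Tgfa (23.9 to 27.9) and of the first start of Egfr (23.3 to 25.2) came next and also overlapped. Below them stood Erbb2 (19.6 to 21.2), Btc (15.2 to 18.5), Areg (8.14 to 9.56) and Ereg (2.13 to 5.20), none of which overlapped its neighbours in this order. Epgn (0.171 to 0.975) and the second start of Egfr (0.543 to 0.731) were nearly closed and overlapped. The first start of each receptor and those of Hbegf, Tgfa and Btc thus ranked highest before injury, while Ereg, Areg and Epgn ranked lowest among the ligands.

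Egfr codes for the receptor that all 6 ligands bind. Its first start (chr11, position 16752203, + strand) had 25.2, 23.3 and 23.7 CPM in uninjured replicates 1 to 3 and 26.0, 26.9 and 19.2 after injury. The groups overlapped, and the log2 change was -0.003 ± 0.12 (SE, n = 3 per group; edgeR adjusted p = 0.992). The second start (position 16878150) had 0.731, 0.543 and 0.574 CPM against 0.753, 0.575 and 0.342, with an adjusted p of 0.916 by the same edgeR test.

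The partner receptor Erbb2 (chr11, start at 98412470, + strand) had 20.4, 21.2 and 19.6 CPM in uninjured and 19.3, 16.9 and 14.955 in injured libraries. Every injured library was below every uninjured one, but the log2 change of -0.26 ± 0.11 (SE) did not pass (edgeR adjusted p = 0.195). The neuregulin receptor Erbb3 (chr10, start at 128589652, - strand) had 31.0, 32.4 and 32.8 CPM against 35.3, 30.9 and 26.5. Its groups overlapped, with a log2 change of -0.05 ± 0.10 (SE).

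Ereg codes for epiregulin, a ligand of Egfr and of Erbb4. Its window (chr5, start at 91074622, + strand) had 2.13, 3.60 and 5.20 CPM in uninjured libraries, by replicate, and 11.0, 8.63 and 7.13 in injured ones. The groups did not overlap, and the log2 change was 1.26 ± 0.29 (SE; edgeR adjusted p = 0.0274). Without the shared barcodes it was 1.25, with an adjusted p of 0.0287. The call was lost when uninjured replicate 1 or 2 or injured replicate 1 or 2 was left out, with edgeR adjusted p-values of 0.0939, 0.105, 0.126 and 0.102 in that order and log2 changes of 1.02, 1.24, 1.09 and 1.30. It held without uninjured replicate 3 (0.00541) and without injured replicate 3 (0.00602).

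Immune markers gave opposite directions at starts and over bodies. The summed start-window level of the immune list ran from 1.01 to 1.69 CPM in uninjured and from 2.48 to 3.93 in injured libraries. Of its 6 genes 4 could be tested and 0 were called (edgeR adjusted p of 0.0941 for the lowest, Laptm5), while Tyrobp and Cx3cr1 were not tested. Over the gene bodies of the 6 genes the sum was lower after injury, at 354 to 390 CPM in uninjured and 280 to 320 in injured libraries. The same sum was also lower for the horizontal basal list, at 458 to 516 against 388 to 439 CPM. It was lower too for the sustentacular list, at 55.0 to 70.5 against 42.7 to 50.8, so the fall was not limited to immune genes. These body sums were divided by total cut sites without TMM scaling, unlike the start windows. The TMM factors from gene bodies, 1.03 to 1.04 in uninjured and 0.947 to 1.00 in injured libraries, would narrow the gaps. With barcodes left out that had over 4 times the mean density of cut sites on any list of other cell types, immune cells included, an alternative added after seeing the data, the Ereg window had a log2 change of 1.12 (edgeR adjusted p = 0.0238). With the median in place of the mean, as planned, it was 1.49 (adjusted p = 0.00508).

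The other 5 ligands did not pass at their starts. Hbegf, heparin-binding EGF, a ligand of Egfr and Erbb4, had 35.2, 30.6 and 28.8 CPM in uninjured and 34.7, 30.4 and 30.5 in injured libraries (chr18, start at 36515805, - strand). Its log2 change was 0.03 ± 0.09 (SE). Areg, which codes for amphiregulin (chr5, start at 91139599, + strand), had 9.26, 8.14 and 9.56 CPM against 12.1, 8.44 and 11.8, with a log2 change of 0.27 ± 0.17 (SE). Both genes had groups that overlapped.

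Btc codes for betacellulin (chr5, start at 91402994, - strand). Its window had 15.2, 15.7 and 18.5 CPM against 21.3, 18.03 and 19.2 after injury, a log2 difference of 0.24 ± 0.11 (SE; edgeR adjusted p = 0.229). Tgfa, which codes for transforming growth factor alpha (chr6, start at 86195223, + strand), had 26.8, 27.9 and 23.9 CPM against 23.7, 22.6 and 19.4. Every injured Tgfa value was below every uninjured one, by narrow margins, and the log2 change of -0.26 ± 0.10 (SE) did not pass (edgeR adjusted p = 0.161). Epgn, which codes for epigen (chr5, start at 91027464, + strand), had 0.975, 0.171 and 0.919 CPM against 0.426, 0.479 and 0.628, too few cut sites for a narrow interval (log2 change -0.39 ± 0.63, SE).

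**Figure D1:**
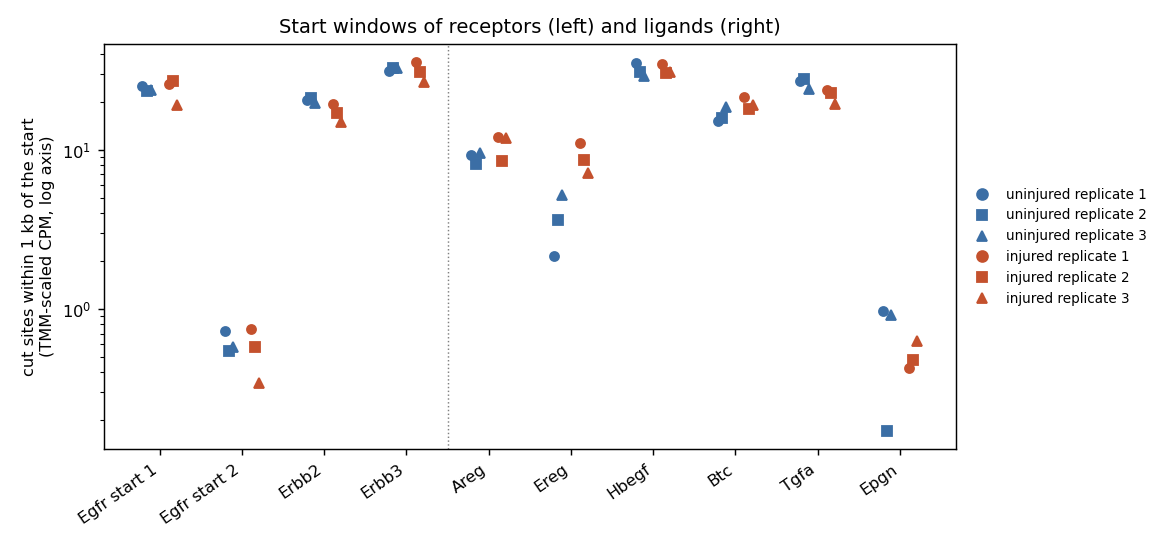
Each point is the level of 1 library (TMM-scaled CPM, log axis) in the window 1 kb to each side of a start, with receptors left of the dotted line, ligands right of it, uninjured in blue and injured in red. The 3 injured Ereg points (7.13 to 11.0) lie above the 3 uninjured ones (2.13 to 5.20), and no other window was called.

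These levels depend on how the libraries were put on a common scale. TMM factors from the windows left the median log2 change over all windows at 0.01. TMM factors from 10 kb bins of the genome moved that median to -0.50, and scaling by total cut sites alone moved it to -0.24. With these, 460 windows were called higher and 11183 lower, and 690 higher and 7100 lower, against 607 and 575. Ereg stayed higher under both (log2 0.75 with adjusted p = 0.0227 and log2 1.01 with adjusted p = 0.0128, edgeR). Under the 10 kb bins the windows of Erbb2, Erbb3, Tgfa, Hbegf and the first start of Egfr were called lower, with log2 changes of -0.78, -0.58, -0.78, -0.50 and -0.54. Of these 5, only Erbb2 and Tgfa lay more than 0.1 below the shifted median. Under total cut sites Erbb2, Erbb3 and Tgfa were called lower, at -0.51, -0.31 and -0.51.

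Whole gene bodies with 2 kb upstream gave the same division. Ereg (chr5:91074622-91093646) was the only body called. It had 3.93, 6.88 and 8.67 CPM in uninjured and 24.5, 21.6 and 15.5 in injured libraries, with no overlap. Its log2 change was 1.63 ± 0.27 (SE; edgeR adjusted p = 0.0231 over 20330 bodies), and 1.62 without the shared barcodes (adjusted p = 0.0197). Among all bodies 3.58% were called higher and 2.78% lower. The body lost its call without uninjured replicate 1 or 2 or injured replicate 1 or 2 (edgeR adjusted p = 0.103, 0.0828, 0.0913 and 0.110), with log2 changes of 1.40, 1.66, 1.49 and 1.62. In those 4 fits 0, 0, 1 and 0 of all 20330 bodies were called, so they say little about single genes.

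The Btc body came next by p, with 23.1, 27.1 and 25.1 CPM against 33.9, 35.9 and 27.7. Its groups did not overlap, but the log2 change of 0.37 ± 0.12 (SE) did not pass (edgeR adjusted p = 0.0903). Without injured replicate 3 it did, at 0.49 with an adjusted p of 0.0228. The receptor bodies had log2 changes of 0.10 ± 0.18 (SE, Egfr), -0.18 ± 0.09 (Erbb2) and 0.04 ± 0.10 (Erbb3), and the groups overlapped for all 3. The bodies of Epgn, Hbegf, Areg and Tgfa had 0.38 ± 0.34 (SE), 0.25 ± 0.13, 0.16 ± 0.15 and 0.03 ± 0.11 and were not called. The Epgn groups did not overlap (1.44 to 1.825 against 1.93 to 2.36 CPM), while those of Hbegf, Areg and Tgfa did.

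Away from the starts more features were called. The gene body with 50 kb on each side was read in 500 bp tiles. A tile counted as open where its CPM, averaged over all libraries and without TMM scaling, reached 5 times the median tile's. This gave 626 open tiles for the 9 genes, among 514026 in the genome, each assigned to the member with the nearest start. At the ligand loci 35 of 303 open tiles were called higher after injury and 0 lower (edgeR adjusted p under 0.05), with 90 of the 303 under an unadjusted p of 0.05. At the receptor loci 6 of 323 were called higher and 2 lower, with 56 under an unadjusted p of 0.05. Over all open tiles an unadjusted p under 0.05 was found for 90464 of 514026. Without barcodes high in another cell type's list by the median rule, receptor tiles were 12 higher and 12 lower, and ligand tiles 46 and 5. With the replicate number as a block, receptor tiles were 10 and 11, and ligand tiles 35 and 6. Over all open tiles these fits called 28700 higher and 11855 lower, and 21537 and 9859, against 18799 and 6024. Calls in both directions thus rose in the whole table as well. In the main fit 3.66% of open tiles in the genome were called higher and 1.17% lower. The ligand share, 11.6%, was above this background and the receptor share, 1.86%, below it, but neighbouring tiles share fragments and the 4 ligand genes Epgn, Ereg, Areg and Btc lie in 1 stretch of chromosome 5, so the shares were not tested against each other. The 35 higher ligand tiles had a median uninjured level of 0.208 CPM, under the floor of 0.230 for an open tile, so most of them counted as open only through the injured libraries and had to differ. The 6 higher receptor tiles had a median of 0.511. The shares therefore describe the tiles that passed the floor and support nothing further. The nearest start was that of a member for 247 of the 303 ligand tiles and for 175 of the 323 receptor tiles. Many receptor tiles thus lay closer to other genes. Among the higher tiles it was a member's start for 28 of 35 and 5 of 6.

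All 41 higher tiles and both lower ones lay over 1 kb from every annotated start. Of such tiles 4.11% were called higher and 1.02% lower in the genome, while within 1 kb of a start 0.996% were called higher and 2.08% lower. Distal tiles made up 270 of the 303 ligand tiles and 268 of the 323 receptor tiles, so the higher shares among distal tiles alone were 13.0% and 2.24%. The median log2 change was 0.31 over all ligand tiles, 0.05 over all receptor tiles and -0.02 over all open tiles. Joined where adjacent, the 35 ligand tiles formed 27 stretches and the 6 receptor tiles 5.

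The 41 tiles, picked by the test for a difference, had groups that did not overlap. Their median level was 0.327 CPM in uninjured and 1.97 CPM in injured cells, beside a floor of 0.230 CPM over all libraries for an open tile. At the ligand loci 17 of the 35 held 15 or fewer uninjured cut sites in all, which limits how well their fold is known. Injured replicate 3 was the lowest injured library in 39 of the 41 tiles, and injured replicate 1 the highest in 33. Injured replicate 3 also stood apart in markers of other cell types. Start windows of the 7 mature neuron markers summed to 62.0 CPM there, against 38.3 and 30.9 in injured replicates 1 and 2, and those of the 7 immature neuron and precursor markers to 65.8 against 44.7 and 43.6. Barcodes not high in any of the 6 lists that the median rule of the alternatives could use made up 53.1% of injured replicate 3. In injured replicates 1 and 2 they made up 69.5% and 71.2%, and in uninjured libraries 66.0% to 68.1%. By the mean rule, which used every list of other cell types, the gap was smaller. The share was then 67.0% in injured replicate 3, 76.3% and 76.2% in injured replicates 1 and 2, and 69.4% to 74.7% in uninjured libraries. The sum over the 6 sustentacular markers ran from 42.8 to 58.3 CPM in uninjured and from 30.7 to 39.5 in injured libraries, with 1 of the 6 called lower. The 7 horizontal basal markers also had 1 called lower, Icam1. Their sum ran from 145 to 193 CPM in uninjured and from 122 to 157 in injured libraries, which overlapped. The part of these differences in the tile counts was not tested beyond the fits without barcodes or libraries.

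Counts of called tiles moved with the libraries. Without uninjured replicates 1, 2 and 3 in turn, 19, 16 and 41 tiles were called higher, and without injured replicates 1, 2 and 3, 14, 10 and 75. Over all open tiles the same fits called 8403, 6703, 17134, 6461, 4157 and 34391 higher, against 18799 with every library, so the counts at these loci moved with the whole table. Split into ligand and receptor tiles, these fits gave 15 and 4, 15 and 1, 36 and 5, 12 and 2, 9 and 1, and 56 and 19. The tiles passed the same floor as before, so the split is a description and supports no contrast between the roles. Without the shared barcodes 40 ligand and 7 receptor tiles were called higher and 0 and 4 lower. Scaling by 10 kb bins gave 24 ligand tiles higher and 6 lower against 4 and 15 for receptors, and total cut sites gave 33 and 3 against 6 and 10. The median log2 change over all open tiles was -0.35 under the 10 kb bins and -0.10 under total cut sites. All open tiles then split into 12361 higher and 16557 lower, and 17380 and 8511, against 18799 and 6024.

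**Figure D2:**
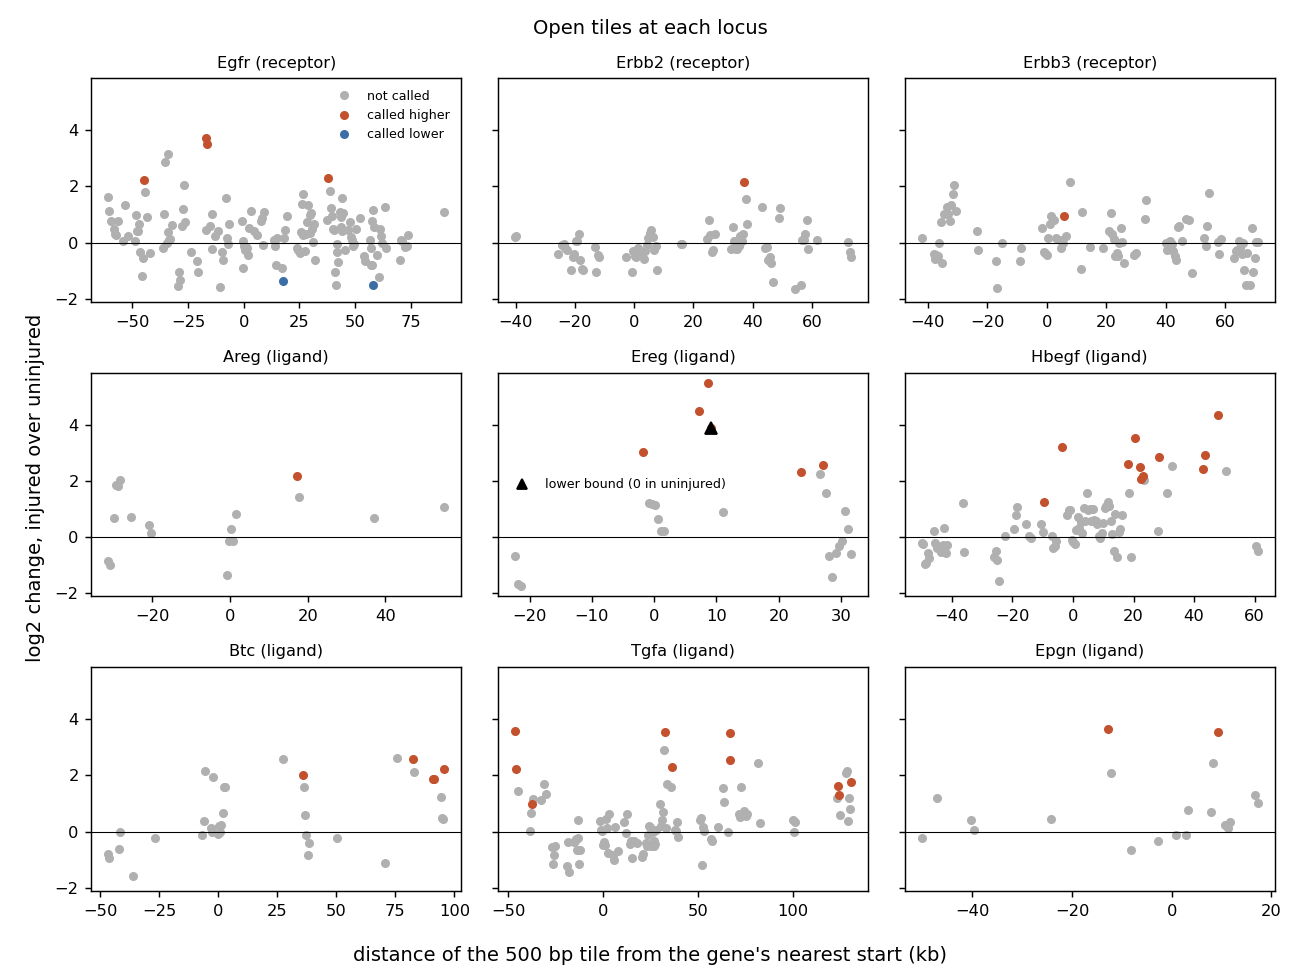
Each point is an open 500 bp tile, placed by its distance from the gene's nearest start (kb, downstream positive) and its log2 change (injured over uninjured), with red for tiles called higher, blue for tiles called lower and grey for the rest. The black triangle marks the Ereg tile with 0 uninjured cut sites at its lower bound of 14.5-fold, and red points are 35 at ligand loci and 6 at receptor loci.

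By gene, the share of open tiles called higher was 6 of 26 at Ereg, 5 of 37 at Btc, 11 of 92 at Hbegf, 2 of 20 at Epgn, 10 of 110 at Tgfa and 1 of 18 at Areg. At the receptors it was 4 of 150 at Egfr, 1 of 78 at Erbb2 and 1 of 95 at Erbb3. Counted over each gene's own full window, where a tile may serve several genes, Hbegf had 11 higher tiles, as many as or more than which stood at 1.08% of all protein-coding loci. For Tgfa (10 tiles) that share was 1.57%, for Ereg (7) 4.59%, for Epgn (6) 6.88%, for Btc (5) 10.1%, for Egfr (4) 14.8% and for Areg (3) 21.9%. Erbb2 and Erbb3 had 1 each, as 51.0% of loci had at least 1. Longer genes have longer windows, so these shares are not corrected for length.

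At Ereg 3 of the 6 higher tiles lay in the gene and 3 outside it, while 17 of the 26 open tiles had a log2 change above 0. The tile with the smallest p of all 626, chosen for description after its values were seen, was in an intron (chr5:91083001-91083500). It had 0.129, 0 and 0.152 CPM in uninjured and 5.16, 4.64 and 2.36 in injured libraries. That is 7 cut sites against 402, a log2 difference of 5.47 ± 0.64 (SE; edgeR adjusted p = 0.00205). The adjacent tile (chr5:91083501-91084000) had no cut site in any uninjured library and 0.667, 0.828 and 0.231 CPM in injured ones. Against a floor of 3 cut sites over the uninjured group it was at least 14.5-fold higher (edgeR adjusted p = 0.0131).

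Between Ereg and Areg the tile chr5:91101501-91102000 had 0.580, 0.841 and 1.34 CPM against 7.71, 6.03 and 3.08 (log2 2.56 ± 0.39 SE; edgeR adjusted p = 0.00460). The Areg tile that was called (chr5:91156501-91157000, intergenic) had 0.322, 0.571 and 0.426 CPM against 2.49, 2.39 and 1.23, a log2 difference of 2.16 ± 0.44 (SE; edgeR adjusted p = 0.0159). At Epgn the tile in the Mthfd2l intron (chr5:91014501-91015000) had 0.0644, 0.120 and 0.0304 CPM against 1.23, 1.24 and 0.410 (log2 3.64 ± 0.72 SE; edgeR adjusted p = 0.0140). In all 3 tiles injured replicate 3 was the lowest injured library and still above every uninjured one.

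The Btc locus changed downstream of the gene. Its tile chr5:91320501-91321000 (intergenic) had 0.129, 0.150 and 0.183 CPM in uninjured and 1.14, 0.966 and 0.795 in injured libraries (log2 2.59 ± 0.52 SE; edgeR adjusted p = 0.0152). Of the other 4 higher Btc tiles 1 lay in a Btc intron.

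Hbegf held its higher tiles between genes, on both sides of the gene. The tile with the largest change (chr18:36467501-36468000) had 0.129, 0 and 0.0913 CPM against 2.07, 1.24 and 0.795 (log2 4.35 ± 0.77 SE; edgeR adjusted p = 0.00834), and lay nearer to the start of Pfdn1 than to that of Hbegf. The tile with the smallest p (chr18:36492501-36493000, chosen after its values were seen) had more injured cut sites (1384) than any other member tile called higher, with 2.58, 3.21 and 3.17 CPM against 19.5, 12.8 and 8.06. Its log2 change was 2.16 ± 0.28 (SE; edgeR adjusted p = 0.00246), in a locus whose start window did not change beyond its error. Of the 11 Hbegf tiles 7 had the Hbegf start as their nearest.

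At Tgfa the tile with the largest change (chr6:86148501-86149000, intergenic, upstream) had 0.0644, 0.0601 and 0.0304 CPM against 0.469, 0.920 and 0.564 (log2 3.59 ± 0.71 SE; edgeR adjusted p = 0.0136). This was 1 of 2 among the 41 tiles in which injured replicate 3 was not the lowest injured library. The tile with the smallest p (chr6:86318501-86319000, chosen after its values were seen) had 3.16, 2.73 and 3.62 CPM against 11.5, 10.9 and 6.70, and its nearest start was that of Fam136a. Of the 10 Tgfa tiles 7 had the Tgfa start as their nearest.

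**Figure D3:**
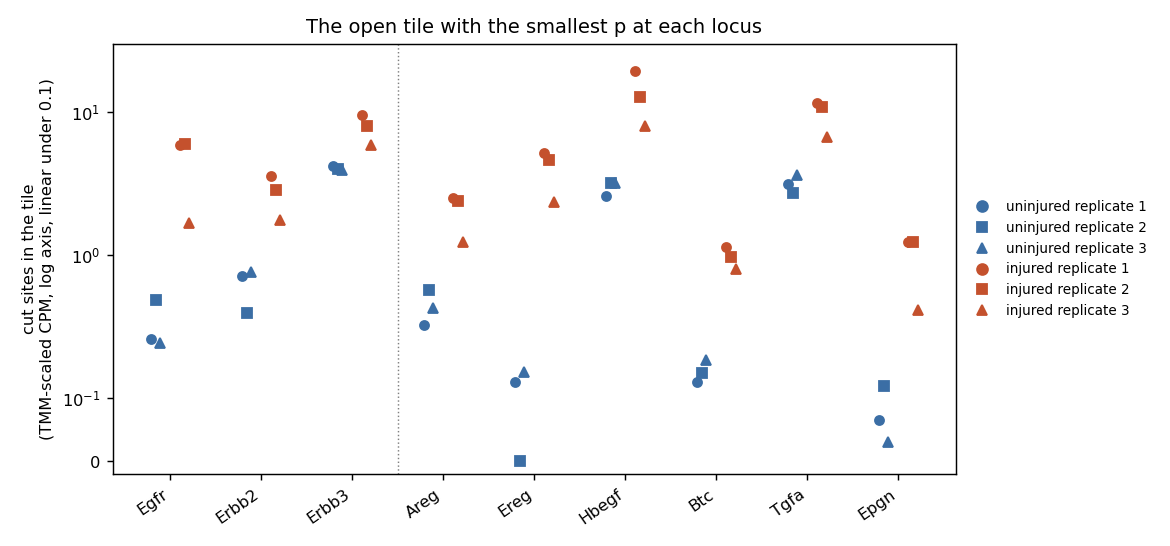
Each point is 1 library's level (TMM-scaled CPM, log axis, linear below 0.1) in the open tile with the smallest p at each locus, receptors left of the dotted line and ligands right of it. In all 9 tiles the injured points (red) lie above the uninjured ones (blue), from 3.93 to 4.19 against 5.85 to 9.61 CPM at Erbb3 to 0 to 0.152 against 2.36 to 5.16 CPM at Ereg, and the tiles were picked for their p, so the picture is a description.

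Egfr was the receptor with tiles called in both directions. Upstream of its first start, the tile chr11:16735001-16735500 had 0.258, 0.481 and 0.243 CPM in uninjured and 5.85, 6.03 and 1.67 in injured libraries. This was the largest change at a receptor (log2 3.72 ± 0.53 SE; edgeR adjusted p = 0.00328). The adjacent tile and 2 tiles in Egfr introns were the other 3 called higher. An Egfr intron tile (chr11:16769501-16770000) was lower, with 8.63, 8.56 and 5.36 CPM against 3.61, 2.39 and 2.77 (log2 -1.35 ± 0.25 SE; edgeR adjusted p = 0.0109). The other lower tile (chr11:16936001-16936500) lay beyond the gene, nearest to the start of Fbxo48, with 3.67, 2.97 and 2.19 CPM against 1.01, 0.966 and 1.08 (log2 -1.51 ± 0.33 SE; edgeR adjusted p = 0.0216).

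The Erbb2 tile (chr11:98449501-98450000) had 0.708, 0.391 and 0.761 CPM against 3.56, 2.85 and 1.77 (log2 2.15 ± 0.41 SE; edgeR adjusted p = 0.0124). It lay within Grb7, a gene downstream of Erbb2 that codes for an adaptor that binds ERBB2. The Erbb3 tile (chr10:128583501-128584000) overlapped an Erbb3 exon and had 4.19, 4.03 and 3.93 CPM against 9.61, 8.00 and 5.85 (log2 0.95 ± 0.22 SE; edgeR adjusted p = 0.0266). The Erbb3 tile lost its call with scaling by 10 kb bins (log2 0.57, adjusted p = 0.159). It also lost it without any 1 library other than injured replicate 3, with adjusted p-values from 0.0561 to 0.121.

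Leaving out either of the first 2 libraries of a group cost many of these calls, and leaving out the third of a group cost 1 or none. Of the 12 called features with full values in the naming rule (the Ereg start window and body and 10 tiles), 7, 9 and 1 lost the call without uninjured replicates 1, 2 and 3, and 8, 10 and 0 without injured replicates 1, 2 and 3. None changed its sign. The highest adjusted p among them was 0.131, for the lower Egfr tile near Fbxo48 without uninjured replicate 1.

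Summed over open tiles, the ligand loci held 477, 485 and 507 CPM before injury and 662, 572 and 480 CPM after it, in the order of the replicates. The groups overlapped because injured replicate 3 lay within the uninjured range, and the ratio of the means was 1.17. In tiles over 1 kb from a start the ligand loci had 265, 290 and 303 CPM against 467, 406 and 312, with no overlap and a ratio of 1.38. The receptor loci had 708, 694 and 689 CPM against 747, 659 and 560 in all tiles, a ratio of 0.940, and in distal tiles a ratio of 1.07 with overlapping groups. Tiles within 1 kb of any gene's start, such as that of Esyt1 near Erbb3, had ratios of 0.866 for ligands and 0.840 for receptors. In both cases every injured library was below every uninjured one. These sums hold starts of neighbouring genes and do not describe the member starts alone. Over the genome, open tiles within 1 kb of any start had a median log2 change of -0.14, and those over 1 kb from every start 0.018. All these sums run over tiles that passed the floor over all libraries. Most of the higher ligand tiles did so only through the injured libraries, so the distal ligand rise is partly set by the floor. The distal ratios describe these tiles and support no contrast between ligands and receptors.

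**Figure D4:**
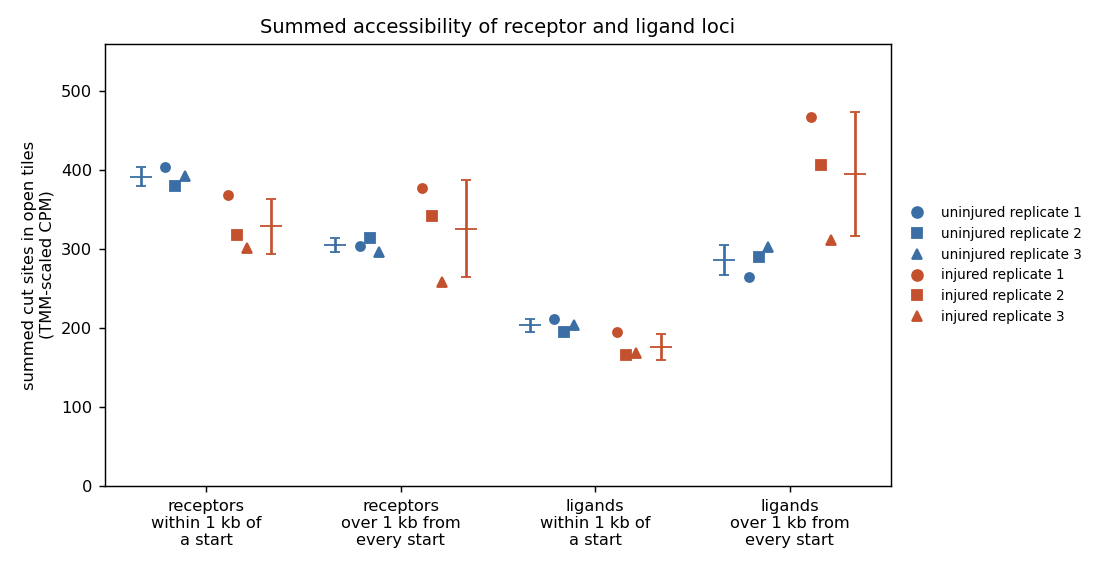
Points are the summed levels of 1 library over open tiles (TMM-scaled CPM, axis from 0) for receptor and ligand loci. They are split at 1 kb from a start of any gene, and bars give the mean and SD of 3 libraries. The injured points of the distal ligand tiles (312 to 467) lie above the uninjured ones (265 to 303), while those of the distal receptor tiles (258 to 378) surround the uninjured ones (296 to 314). The tiles passed a floor set over all libraries, injured ones included, so the picture is a description.

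The AP-1 core marked in the sequences above was found in 21 of the 35 higher ligand tiles (60.0%) and in 5 of the 6 higher receptor tiles. It was present in 21.3% of the ligand tiles not called, in 20.3% of the receptor tiles not called and in 19.8% of all open tiles. Among all open tiles called higher 61.3% held it, so the ligand tiles stood at the share of higher tiles in general. By locus, higher tiles with the core were 4 of 6 at Ereg, 4 of 5 at Btc, 6 of 10 at Tgfa, 5 of 11 at Hbegf, 1 of 2 at Epgn and 1 of 1 at Areg. The core that TEAD factors bind, GGAATG on either strand, was in 14 of the 35 (40.0%), against 25.9% of all open tiles and 29.7% of all higher tiles. The RUNX core TGTGGTT was in 6 of the 35 (17.1%), against 12.1% and 14.8%. The AP-1 and TEAD cores can share bases where they meet, and a tile was then counted for both. A match describes letters and not binding.

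The genes around the family were read at their start windows in a list of 50 chosen by role, of which 75 windows were tested. Over the whole list, 3 were called higher and 5 lower (edgeR), where 2.47% and 2.34% of all windows were. An unadjusted p under 0.05 was found for 23 of the 75 and for 5483 of all 24618 windows, and the median log2 change was -0.10 against 0.01 over all windows. The windows tested include weakly open starts. Open tiles within 1 kb of any start had a median of -0.14 in the tile fit, which has its own scale. The list median is thus not read as a fall below open starts in general. Plaur, which codes for the urokinase receptor and is a late target of the pathway, rose from a mean of 9.58 to 31.2 CPM (log2 1.68 ± 0.21 SE; edgeR adjusted p = 0.00420). It was called in each fit that left out 1 library. Nrg3, a neuregulin, rose from 1.53 to 3.72 CPM (log2 1.31 ± 0.33 SE; edgeR adjusted p = 0.0365).

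Lower windows were those of early targets and of a feedback inhibitor. Egr1, an immediate early transcription factor, fell at both of its starts, from 77.5 to 56.0 CPM (log2 -0.46 ± 0.09 SE; edgeR adjusted p = 0.0105) and from 112 to 77.4 CPM (log2 -0.53 ± 0.09 SE; edgeR adjusted p = 0.00800). Fos, which codes for an AP-1 subunit, fell from 80.6 to 56.6 CPM (log2 -0.50 ± 0.12 SE; edgeR adjusted p = 0.0432), and Junb, another subunit, from 60.9 to 45.6 CPM (log2 -0.41 ± 0.08 SE; edgeR adjusted p = 0.0167). The second start of Errfi1, whose product binds and inhibits the EGF receptor, fell from 32.9 to 25.0 CPM (log2 -0.39 ± 0.09 SE; edgeR adjusted p = 0.0228). All 8 called windows, also picked by the test for a difference, had groups that did not overlap. Of the roles, the 10 target genes gave 1 higher and 4 lower windows of 12, with 8 at an unadjusted p under 0.05. The other ligands and receptors gave 1 higher of 12, with 4 at that level. The 4 sheddase genes gave 0 calls in 6 windows (0 at an unadjusted p under 0.05, log2 -0.16 to 0.81). The turnover and feedback genes gave 1 lower window of 16, with 5 at that level. A further role of the list is not reported here.

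Counts and single calls of the list also moved with libraries and scale. Without uninjured replicates 1, 2 and 3 the list had 1, 1 and 2 windows higher and 2, 3 and 5 lower, and without injured replicates 1, 2 and 3 it had 1, 1 and 4 higher and 2, 0 and 5 lower. Over all windows those 6 fits called 193, 232, 645, 168, 127 and 1065 higher and 73, 98, 551, 106, 56 and 905 lower, against 607 and 575 with every library. Of the fits without 1 library, Nrg3 kept its call only in that without injured replicate 3 (adjusted p = 0.0241), and it lost it with scaling by 10 kb bins (0.0846). Fos also lost its call with barcodes of at least 20% of cut sites in open tiles (0.0577), and Junb without barcodes high in another cell type's list by the median rule (0.0539). Egr1 lost its calls at both starts without injured replicate 2 only (adjusted p = 0.0637 and 0.0597), and Fos kept its call only without uninjured replicate 3 (0.00458). The second Errfi1 start kept its call only without injured replicate 3, with adjusted p-values of 0.0627 to 0.101 otherwise. Junb lost its call without uninjured replicate 1 or injured replicate 1 or 2 (0.0644 to 0.0747). Scaling by 10 kb bins gave 2 windows higher and 50 lower, and by total cut sites 3 and 35. The medians of the list were then -0.61 and -0.35, each about as far below the shifted median of all windows as before.

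**Figure D5:**
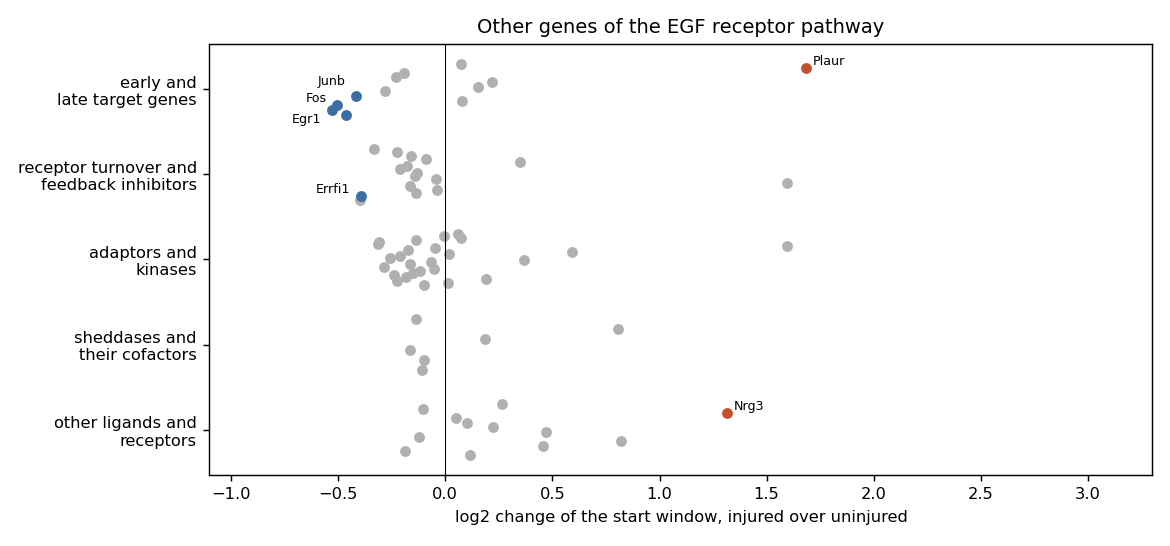
Each point is 1 start window of a listed gene, placed by its log2 change (injured over uninjured) and its role, with red for windows called higher, blue for windows called lower and grey for the rest. Plaur and Nrg3 stand right of 0, and Egr1, Fos, Junb and the second Errfi1 start lie between -0.53 and -0.39.

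The start windows whose levels followed that of Ereg most closely over the 6 libraries, among 14573 windows with a mean of at least 5 CPM, were those of Nupr1, Glrx2 and Hist1h2ab. Pearson's r of log2 CPM was 0.997, 0.995 and 0.995. In 390 of the windows r was over 0.9, and 6 libraries share their depth and scaling between all genes, so the likeness is a description only. Nupr1, a stress-induced chromatin protein, had 2.86, 5.66 and 9.74 CPM in uninjured and 21.4, 17.4 and 13.9 in injured libraries, the same order of libraries as Ereg. Its log2 change of 1.48 did not pass (edgeR adjusted p = 0.0646). Those of Glrx2 (0.15, adjusted p = 0.324) and Hist1h2ab (0.42, adjusted p = 0.186) did not pass either by edgeR.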

How the data were processed

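The authors deposited, for each of 6 libraries, a list of deduplicated fragments with their position, barcode and read pair count, and a matrix of counts per peak and barcode. The submitters' processing notes name Cell Ranger 2.0.0 and mm10, and the matrices give software version 1.2.0 per the file headers. The matrices were not used. No fragment ended past a GRCm38 chromosome end, and GRCm38 with GENCODE M21 gave the genes. Fragments came from 2.55 to 11.2 read pairs each, and cut sites are not independent molecules beyond that deduplication.

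Both fragment ends were counted in start windows, gene bodies with 2 kb upstream and 500 bp tiles, over barcodes with at least 2000 fragments. Each whole table was fitted with edgeR 4.0.16 in R 4.3.3 (quasi-likelihood F-test, robust, TMM, filterByExpr for windows and bodies) on 3 against 3 libraries, with Benjamini-Hochberg adjustment and a threshold of 0.05. DESeq2 1.42.0 was an alternative. The SE is the absolute log2 change divided by the square root of F. The window, body and tile fits were tested on simulated data, where the tile fit missed most of the smaller changes. The changes were planted in a small part of each table and only in well-cut features. Recovery at tiles with few cut sites was thus not measured. Levels per library have no interval beyond the SE of the change. The members, lists, motifs and tests were chosen with earlier results of these data known. Named are all members with their start windows and bodies, the called tile with the largest change in each direction at each locus, each called window of the pathway list but 1, which is not reported here, and the 3 windows most like that of Ereg. Tiles said to be chosen after their values were seen, and further single tiles at Egfr and between Ereg and Areg, are outside this rule. No doublet caller was run and no cells were clustered.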

Additional observations from a re-analysis of the deposited data

How the results depend on the processing

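Called start windows of the 9 genes numbered 1, with 6 under TMM factors from 10 kb bins, 4 under total cut sites and 0 to 1 when a library was left out. The Hbegf start window was the only named feature called on the other side of 0, at -0.50 (edgeR adjusted p = 0.0104) under the 10 kb bins, which moved the median of all windows to the same value. Called gene bodies numbered 1, with 2 under the 10 kb bins, 2 without barcodes over 4 times the mean density of a list of other cell types (an alternative chosen after seeing the data) and 0 to 2 when a library was left out. Higher tiles numbered 41, with 28 to 58 under the alternatives that kept all libraries and 10 to 75 when a library was left out. Over all tiles tested those ranges were 12361 to 28700 and 4157 to 34391, against 18799.

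Lower tiles, 2 at first, numbered 4 with open tiles set at 10 times the median, 5 with tiles shifted by 250 bp, 8 with DESeq2, 21 with the 10 kb bins, 13 with total cut sites, 17 without barcodes over 4 times the median density of such a list, 8 by the mean rule, 4 without shared barcodes (also chosen after seeing the data) and 0 to 9 when a library was left out. In that order the same fits called 6637, 6014, 7132, 16557, 8511, 11855, 8267 and 5542 of all tiles tested lower. Leaving out a library gave 586 to 8523, against 6024 in the main fit. The median rule could use 6 of the 9 lists, since the others had a median of 0. Replicate numbers share an age in the labels, but the main fit does not pair the libraries. Over windows, deviations of same-numbered libraries correlated at 0.09, 0.22 and 0.28. Injured replicate 1 correlated better with uninjured replicate 2, at 0.17, and the other pairs of unlike number lay between -0.30 and -0.03. These values do not settle whether the libraries were paired. The pair of replicates 3 shares 34 barcodes. With a replicate block 17 tiles were lower, 6 at ligand and 11 at receptor loci, and 45 higher, 35 at ligand and 10 at receptor loci, and the Ereg window stayed called (log2 1.29, edgeR adjusted p = 0.0224). The 12 named calls held under the block. Over all open tiles the block gave 21537 higher and 9859 lower, and over all windows 1128 and 1711. It gave 3 higher and 11 lower windows of the pathway list. The ratio of summed levels, injured over uninjured, was 1.14 to 1.25 for ligands and 0.902 to 1.00 for receptors under the alternatives run. Those alternatives changed the barcodes or the floor for open tiles and kept the main TMM factors, so other scales were not tried. Each floor was still set over all libraries, so these ratios are a description too. The cause of these changes was not tested.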
